A study of Mus musculus with 6 samples.

Results

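The 38 genes described here encode proteins that move fatty acids into cells, activate them, carry them into organelles and oxidise them, with the regulators of that programme. They were listed by name, and all 38 were found among the 26181 genes of the table. Sorted by role, 7 act in uptake and activation, 16 in mitochondrial oxidation, 7 in peroxisomal oxidation, 2 in both organelles, 2 as thioesterases and 4 as regulators. Total RNA of primary splenic CD8+ T cells was sequenced, with 3 libraries from wild-type C57BL/6 mice on CDAHFD and 3 from mice of the same strain and genotype on ND. CDAHFD usually stands for a high-fat diet that lacks choline and supplies defined amino acids, and the labels use it as a model of MASH, a steatohepatitis. Both diets were given for 7 weeks from 6 weeks of age, and the label ND is not spelled out. Libraries held 25314988 to 28067393 reads assigned to genes. The labels name a whole-RNA and an mRNA library kit without saying which library used which, and do not say that libraries of 1 diet came from separate animals. The p-values therefore cover only the scatter among these 6 libraries, part of which may be technical.

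As background, a fatty acid is first coupled to coenzyme A by an acyl-CoA synthetase. Mitochondria take up long chains through the carnitine shuttle and shorten them in repeated rounds of dehydrogenation, hydration, a second dehydrogenation and thiolysis, passing electrons to the respiratory chain through electron transfer flavoprotein. Peroxisomes import very long and branched chains through ABC transporters, begin oxidation with oxidases that make hydrogen peroxide, and hand shortened chains on as carnitine esters. In CD8+ T cells fatty acid oxidation is best known from memory and resting cells.

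Of the 38 genes, 36 reached the minimum mean of 10 normalised counts over the 6 libraries and were tested. In uptake and activation 3 of the 6 tested genes rose and 0 fell, with Slc27a4 at 1.74 times, Acsl1 at 1.64 times and Acsl3 at 1.59 times its ND level. Of 16 mitochondrial genes 4 were called higher and 3 lower, 9 had no call, and all but Etfb differed by less than 1.5-fold. Of 7 peroxisomal genes 3 rose, 2 fell and 2 had no call. Beside these counts, 24.6% of all tested genes in the table were called higher and 22.5% lower. The largest difference among the 36 was in Abcd2, a peroxisomal importer of very long-chain acyl-CoA, at 3.43 times its ND level.

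The deposited values are, by their steps, read counts divided by 1 factor for each library, called normalised counts here, and fold changes are on the scale of log2(normalised count + 1). In all, 13 of the 36 tested genes rose and 5 fell at a limma adjusted p under 0.05. Over all 15819 tested genes 47.1% were called, 24.6% as higher and 22.5% as lower, so the 18 calls among 36 genes are near the background. The median log2 fold change of the 36 genes was 0.024, against -0.015 over all tested genes. The count of 5 lower genes became 3 without CDAHFD replicate 2, without CDAHFD replicate 3, without ND replicate 2 or without ND replicate 3. Levels of CDAHFD and ND libraries did not overlap for 19 of the 36 genes, where 54.3% of all tested genes showed no overlap. For each gene without overlap, an exact two-sided permutation test over samples gave p = 0.1, the smallest that 3 against 3 libraries allow.

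The preparations differed in more than these genes. Defining CD8 T cell markers were abundant in all 6 libraries, with Cd8a at 27782, 28177 and 27699 normalised counts in CDAHFD libraries and 32988, 32995 and 32684 in ND libraries, and 15 of 16 such markers fell (median log2 fold change -0.31). The summed level of these 16 markers was 149138 to 154198 normalised counts in CDAHFD libraries and 184707 to 190001 in ND libraries. Of 20 macrophage markers 20 rose, with a median log2 fold change of 3.00. Their summed level was 187144 to 205102 normalised counts in CDAHFD libraries and 24557 to 27400 in ND libraries. The macrophage sum was thus above the CD8 T cell sum in every CDAHFD library and below it in every ND library. Erythroid markers rose for 10 of 10 (median 3.11) with summed levels of 9557 to 9851 in CDAHFD libraries and 1048 to 1085 in ND libraries. Plasma cell markers rose for 6 of 7, while 8 of 9 B cell markers fell and 1 rose. Of 10 monocyte and neutrophil markers 7 rose and 1 fell, of 9 dendritic cell markers 6 fell, of 4 CD4 T cell markers 2 rose and 1 fell, and of 5 NK cell markers 1 rose and 1 fell. Of 6 tested endothelium and platelet markers 2 rose and 1 fell. No defining macrophage, erythroid or B cell marker was at 0 in either diet. The part of these other cells in the differences below was not tested. In bulk RNA, fewer cells of a type and less RNA per cell cannot be told apart.

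A few promoter stretches are shown because they bear on which of these genes share regulatory letters. RefSeq promoter windows (GRCm38.p6, 250 bases before to 50 after a gene's start) were matched for 31 of the 38 genes, in 37 windows. The direct repeat DR1, AGGTCA written again after any 1 base, is known to be bound by PPAR with RXR and was searched on both strands with up to 2 mismatches. It was found for 3 of 31 genes (9.68%), against 4.40% of all 27025 genes with a window. Those genes were Echs1, Etfa and Slc25a20. Their stretches follow, 5′ to 3′ on the gene's strand, with the matched 13 letters in capitals; that of Etfa lies on the opposite strand, and that of Slc25a20 begins at base 7 counted from the RefSeq start, lies inside the gene as GENCODE M21 places it, and is given alone.
Echs1, chr7:140116477-140116519, minus strand: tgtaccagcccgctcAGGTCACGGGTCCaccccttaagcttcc
Etfa, chr9:55512293-55512335, minus strand: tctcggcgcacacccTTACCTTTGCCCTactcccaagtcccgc
Slc25a20, chr9:108662142-108662154, plus strand: AGGTGAAAGGTCG

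None of these 3 genes passed the test between diets. Echs1, the short-chain enoyl-CoA hydratase, had 826, 916 and 913 normalised counts in CDAHFD libraries and 867, 944 and 874 in ND libraries. For the other genes with a window, no match says only that these letters are not in it. No window was used for Abcd2, Acaa2, Acot13, Crat, Decr1, Hsd17b4 and Ppargc1b. The GC box GGGCGG, a site of Sp1-type factors, searched afterwards, was present on either strand in 25 of the 31 genes (80.6%), against 38.2% of all genes with a window. Median GC content was 60.7% over the 37 windows and 52.7% over all 32851 windows, and the motif is itself rich in G and C. The box CCAAT, a site of NF-Y, was in 14 of 31 (45.2%) and in 41.1% of all genes. The exact element TNAAGGTCA, a site of oestrogen-related receptors, was in 1 of 31, in Acsl6, and in 1.43% of all genes.

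Hadha and Hadhb, the subunits of the mitochondrial trifunctional protein, lie head to head. The 85 bases between their starts in the GENCODE annotation, with GC boxes in capitals, are shown because both genes were called lower. Neither call held under all alternatives, as given below, and whether these bases bear on the calls was not tested. The stretch comes from the RefSeq window of Hadhb on GRCm38.p6.
Hadha and Hadhb, chr5:30155163-30155247, plus strand: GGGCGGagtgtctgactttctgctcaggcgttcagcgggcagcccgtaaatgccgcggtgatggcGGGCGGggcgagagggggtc

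The first step, entry and activation, was led by Slc27a4, which encodes fatty acid transport protein 4, a membrane protein with acyl-CoA synthetase activity for very long chains (ENSMUSG00000059316, chr2:29802634-29817522; gene positions are those of GENCODE M21 on mm10). It had 1034, 1095 and 1106 normalised counts in CDAHFD libraries and 672, 598 and 586 in ND libraries. All CDAHFD values lay above all ND values (log2 fold change 0.80, SE 0.065, limma adjusted p = 2.2e-11). Slc27a1, a related transporter known from muscle and fat, had 381, 457 and 464 normalised counts in CDAHFD libraries and 382, 386 and 396 in ND libraries. CDAHFD replicate 1 lay below the ND range, and the gene did not pass the test (log2 fold change 0.16, SE 0.086, limma adjusted p = 0.141), while without that library the limma adjusted p was 0.0155.

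Acsl1, a synthetase for long chains that is abundant in liver, fat and muscle (ENSMUSG00000018796, chr8:46471037-46536051), had 555, 569 and 499 normalised counts in CDAHFD libraries and 318, 335 and 334 in ND libraries. The groups were well apart (log2 fold change 0.72, SE 0.081, limma adjusted p = 1.88e-08). Acsl3, linked to lipid droplets and the endoplasmic reticulum (ENSMUSG00000032883, chr1:78657825-78707743), had 288, 224 and 249 in CDAHFD libraries and 141, 170.4 and 164 in ND libraries. It rose to a like degree, with CDAHFD replicate 1 the highest and no overlap (log2 fold change 0.67, SE 0.12, limma adjusted p = 2.48e-05). Of the exon bases of Acsl3, 5.60% also lie in exons of Utp14b on the same strand, so reads there could be counted for either gene. Utp14b averaged 173 normalised counts in CDAHFD libraries and 127 in ND libraries. Acsl5, abundant in gut, and Acsl4, known for a preference for arachidonic acid, did not pass the test. Acsl5 averaged 3199 ± 123 normalised counts in CDAHFD libraries and 3114 ± 141 in ND libraries (SD, n = 3 each; 95% interval of the log2 fold change -0.053 to 0.13). Acsl4 averaged 2202 ± 91.9 normalised counts in CDAHFD libraries and 2222 ± 28 in ND libraries (SD, n = 3 each; 95% interval of the log2 fold change -0.11 to 0.08). Acsl6, known from brain and red cell precursors, was below the minimum, with 4, 12 and 3 reads in CDAHFD libraries and 1, 0 and 4 in ND libraries. Its ratio of depth-adjusted reads was 3.76, with an exact 95% counting interval of 1.36 to 12.9 that covers counting error only.

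Per kilobase of transcript, Acsl5 was the most abundant of the 5 synthetases in every library. It made up 54.8% ± 1.62 of their summed normalised counts per kb in CDAHFD libraries and 57.3% ± 1.28 in ND libraries (SD, n = 3 each). Acsl4 held 30.3% ± 0.956 in CDAHFD and 32.9% ± 1.11 in ND libraries. The share of Acsl1 was 10.1% ± 0.708 in CDAHFD libraries and 6.59% ± 0.23 in ND libraries, and that of Acsl3 was 4.66% ± 0.455 in CDAHFD and 3.13% ± 0.297 in ND libraries. The forms that rose, Acsl1 and Acsl3, were thus the less abundant ones. The summed level of all 5 was 1377 ± 39.1 normalised counts per kb in CDAHFD libraries and 1280 ± 29.7 in ND libraries.

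**Figure D1:**
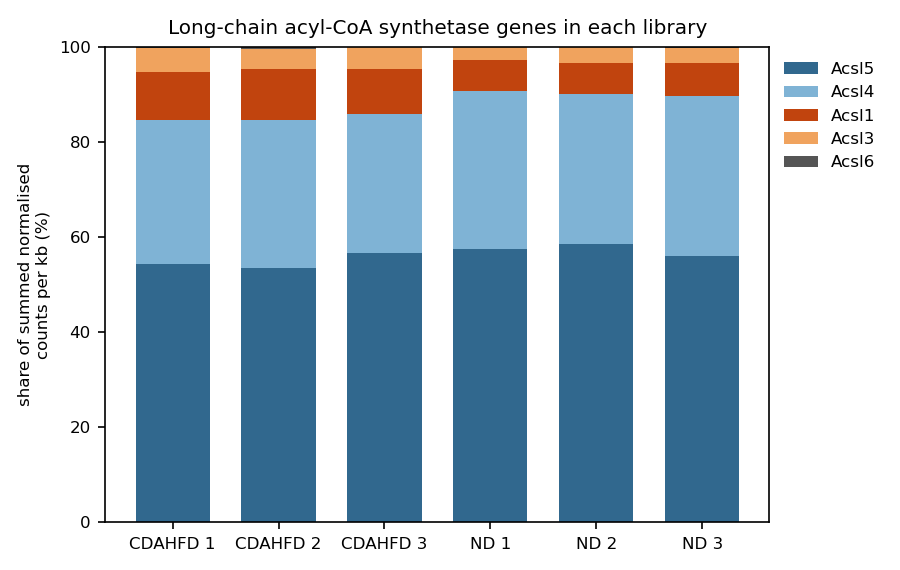
Stacked bars give the share (%) of each long-chain acyl-CoA synthetase gene in their summed normalised counts per kb of transcript, for 3 CDAHFD and 3 ND libraries. Acsl5 and Acsl4 make up most of every bar, and the Acsl1 and Acsl3 segments are wider in the CDAHFD bars (10.1% and 4.66% on average) than in the ND bars (6.59% and 3.13%).

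The carnitine shuttle is represented by Cpt2, the carnitine palmitoyltransferase of the inner mitochondrial membrane (ENSMUSG00000028607, chr4:107903981-107923610), and Slc25a20, the carnitine-acylcarnitine carrier. Cpt2 had 374, 393 and 413 normalised counts in CDAHFD libraries and 368, 322 and 311 in ND libraries. The highest ND value lay just under the lowest CDAHFD value (log2 fold change 0.24, SE 0.088, limma adjusted p = 0.0272). This call did not hold without CDAHFD replicate 2 (limma adjusted p = 0.0574), CDAHFD replicate 3 (0.111), ND replicate 2 (0.0892) or ND replicate 3 (0.123). It was also lost by DESeq2 (adjusted p = 0.0543) and by limma without trend and robust estimation, called plain limma below (0.0665). Slc25a20 averaged 873 ± 30.1 normalised counts in CDAHFD libraries and 879 ± 53 in ND libraries (SD, n = 3 each), and its groups overlapped (limma adjusted p = 0.914). Cpt1a, the outer-membrane enzyme that sets the rate of entry, belongs to a separate list of pathway genes and averaged 5012 ± 100.2 normalised counts in CDAHFD libraries and 3587 ± 119 in ND libraries (log2 fold change 0.48, SE 0.041, limma adjusted p = 6.81e-11).

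The acyl-CoA dehydrogenases start each round and are named for the chain length they prefer. Acadl, the long-chain enzyme (ENSMUSG00000026003, chr1:66830839-66863277), had 1699, 1553 and 1513 normalised counts in CDAHFD libraries and 1389, 1432 and 1300.1 in ND libraries. It rose without overlap by a small amount (log2 fold change 0.21, SE 0.054, limma adjusted p = 0.00223), and plain limma lost the call (adjusted p = 0.0567). The very long-chain enzyme Acadvl, the medium-chain enzyme Acadm and the short-chain enzyme Acads did not pass the test. Acadm averaged 1547 ± 51.4 normalised counts in CDAHFD libraries and 1558 ± 64.4 in ND libraries (SD, n = 3 each; 95% interval of the log2 fold change -0.11 to 0.094). Acads averaged 688 ± 22.4 normalised counts in CDAHFD libraries and 678 ± 16.5 in ND libraries (SD, n = 3 each; 95% interval of the log2 fold change -0.11 to 0.15). Acadvl had 1077, 1092 and 1065 normalised counts in CDAHFD libraries and 1042, 1115 and 1135 in ND libraries. In the annotation 42.9% of its exon bases also lie in exons of Dvl2 on the opposite strand, and without a stated strand setting their reads cannot be told apart; Dvl2 fell (log2 fold change -0.28, limma adjusted p = 0.000155).

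Of the 5 genes of the next steps, from hydration to thiolysis, 3 were called lower, where 22.5% of all tested genes were. The call of Acaa2 held under all 16 alternatives, while those of Hadha and Hadhb did not. Acaa2, the mitochondrial 3-ketoacyl-CoA thiolase that releases acetyl-CoA (ENSMUSG00000036880, chr18:74779197-74806208), had 1424, 1402 and 1421 normalised counts in CDAHFD libraries and 1891, 2052 and 1939 in ND libraries. It fell furthest of the 36 tested genes on the log2 scale, with groups far apart (log2 fold change -0.47, SE 0.049, limma adjusted p = 3.79e-09). Hadha, the subunit that carries long-chain hydratase and dehydrogenase activity (ENSMUSG00000025745, chr5:30118304-30155162), had 4216, 4025 and 3845 in CDAHFD libraries and 4490.0, 4528 and 4279 in ND libraries. Its groups did not overlap but lay close (log2 fold change -0.14, SE 0.043, limma adjusted p = 0.0092). The Hadha call did not hold without CDAHFD replicate 3 (limma adjusted p = 0.0806) or ND replicate 2 (0.0542), nor by plain limma (0.0973).

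Hadhb, the thiolase subunit of the same complex (ENSMUSG00000059447, chr5:30155248-30184593), had 2229, 2003 and 1999.8 normalised counts in CDAHFD libraries and 2117, 2536 and 2474 in ND libraries. Its groups overlapped, because ND replicate 1 lay below CDAHFD replicate 1 (log2 fold change -0.19, SE 0.062, limma adjusted p = 0.016; exact two-sided permutation p = 0.2). The call did not hold without CDAHFD replicate 2 (limma adjusted p = 0.0612), CDAHFD replicate 3 (0.071), ND replicate 2 (0.0903) or ND replicate 3 (0.0778), nor by plain limma (0.153). Hadhb has a processed pseudogene, Gm13910, that is 99.8% identical over 1428 bases, and the counting could split reads between them, so the value of Hadhb is uncertain. Gm13910 averaged 630.4 ± 49.2 normalised counts in CDAHFD libraries and 677 ± 26.6 in ND libraries and did not pass the test (limma adjusted p = 0.229). Per kb of transcript the ratio of Hadhb to Hadha was 1.01 ± 0.0314 in CDAHFD libraries and 1.05 ± 0.112 in ND libraries (SD, n = 3 each), with overlapping ranges. Hadh, the dehydrogenase for shorter chains, averaged 787 ± 25.4 normalised counts in CDAHFD libraries and 799.8 ± 39.6 in ND libraries (SD, n = 3 each; 95% interval of the log2 fold change -0.15 to 0.11). Neither Hadh nor Echs1 passed the test (limma adjusted p = 0.803 for Hadh and 0.848 for Echs1), and each changed sign in some fits that left out 1 library.

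Of the enzymes for unsaturated chains, Eci1 rose. Eci1, an isomerase that moves double bonds (ENSMUSG00000024132, chr17:24426641-24439348), had 554, 608 and 590.5 normalised counts in CDAHFD libraries and 408, 417 and 403 in ND libraries. All CDAHFD values were above all ND values (log2 fold change 0.51, SE 0.074, limma adjusted p = 1.48e-06). Decr1, the mitochondrial 2,4-dienoyl-CoA reductase, had 354, 305 and 360.1 in CDAHFD libraries and 320.0, 341 and 337 in ND libraries. CDAHFD replicate 2 was its lowest library and CDAHFD replicate 3 its highest, and it did not pass the test (log2 fold change 0.028, SE 0.09, limma adjusted p = 0.831).

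Electron transfer flavoprotein takes electrons from the dehydrogenases and is made of the products of Etfa and Etfb. Etfb (ENSMUSG00000004610, chr7:43444083-43457800) had 169, 166 and 169 normalised counts in CDAHFD libraries and 115, 82.7 and 82 in ND libraries. ND replicate 1 stood above the other ND libraries, and all ND values lay below the CDAHFD values (log2 fold change 0.86, SE 0.14, limma adjusted p = 1.3e-05). Etfa averaged 1259.8 ± 80.1 normalised counts in CDAHFD libraries and 1244 ± 44.4 in ND libraries (SD, n = 3 each; limma adjusted p = 0.828). Per kb of transcript, Etfb stood at 0.208 ± 0.0113 of the level of Etfa in CDAHFD libraries and 0.117 ± 0.0258 in ND libraries. Of the exon bases of Etfb, 53.0% lie in exons of the gene Gm45233 on the same strand, not analysed here, so both the level and the change of Etfb depend on how shared reads were counted. Etfdh, which passes the electrons on to ubiquinone, averaged 1101 ± 41.1 normalised counts in CDAHFD libraries and 1139 ± 16.8 in ND libraries and did not pass the test (limma adjusted p = 0.482).

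**Figure D2:**
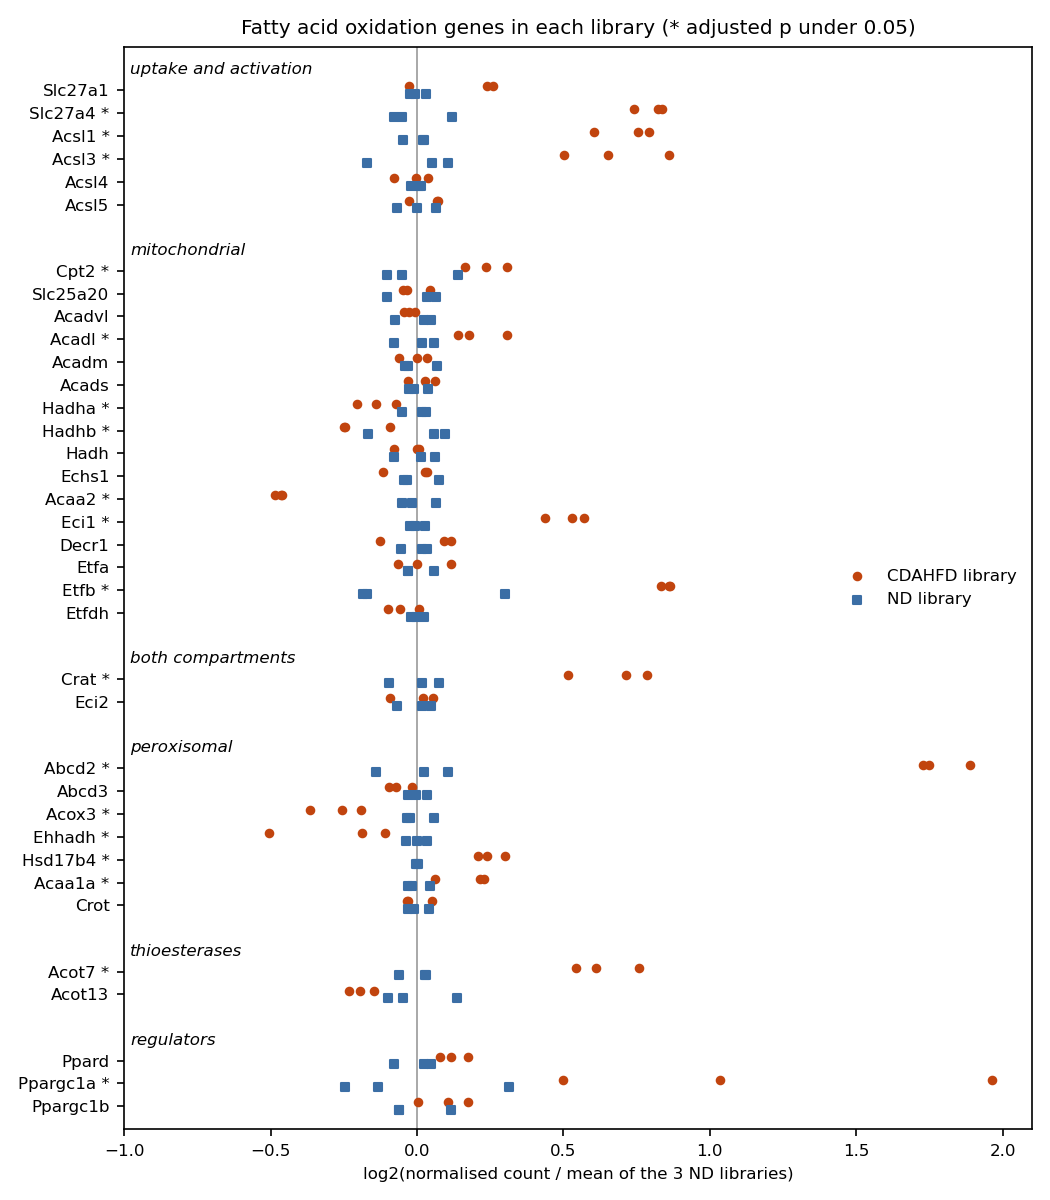
Each row is 1 of the 36 tested genes and each symbol 1 library, placed by log2 of its normalised count over the mean of the 3 ND libraries; circles are CDAHFD and squares ND libraries, and an asterisk marks a limma adjusted p under 0.05. The symbol furthest to the right is CDAHFD replicate 3 of Ppargc1a, a gene with few counts, followed by the 3 CDAHFD symbols of Abcd2. Acaa2 is clearly to the left, and most mitochondrial genes sit near 0 with mixed symbols.

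The importers open the peroxisomal pathway. Abcd2, an ABC transporter of very long-chain acyl-CoA (ENSMUSG00000055782, chr15:91145871-91191799), had 319, 289.8 and 286 normalised counts in CDAHFD libraries and 78.2, 92.9 and 87.7 in ND libraries. The lowest CDAHFD value was well above the highest ND value (log2 fold change 1.78, SE 0.12, limma adjusted p = 6.35e-13). Abcd3, a major peroxisomal membrane protein, had 783, 796 and 828 in CDAHFD libraries and 819, 835 and 857 in ND libraries. It did not pass the test (log2 fold change -0.061, SE 0.06, limma adjusted p = 0.434). Per kb, Abcd2 made up 19.0% ± 1.32 of the summed level of both genes in CDAHFD libraries and 6.10% ± 0.441 in ND libraries (SD, n = 3 each).

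Oxidation inside the peroxisome moved both ways, with 2 genes higher and 2 lower. Acox3, an oxidase known for branched chains (ENSMUSG00000029098, chr5:35583040-35615352), had 1783, 1923 and 2013 normalised counts in CDAHFD libraries and 2257, 2242 and 2390.0 in ND libraries. It fell without overlap (log2 fold change -0.27, SE 0.05, limma adjusted p = 4.81e-05). Ehhadh, the L-bifunctional enzyme and a classical PPAR alpha target in liver (ENSMUSG00000022853, chr16:21761287-21787807), had 329, 250.0 and 312 in CDAHFD libraries and 364, 346 and 355 in ND libraries. CDAHFD replicate 2 was the lowest and the groups did not overlap (log2 fold change -0.27, SE 0.10, limma adjusted p = 0.0266). Without that library the limma adjusted p was 0.243 and the log2 fold change -0.15, and the call was also lost without ND replicate 1 (0.0878) or ND replicate 3 (0.0663). DESeq2 (adjusted p = 0.0615) and plain limma (0.113) did not call it.

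Hsd17b4, the D-bifunctional enzyme that serves very long and branched chains (ENSMUSG00000024507, chr18:50128201-50196269), had 1861, 1941 and 1824 normalised counts in CDAHFD libraries and 1574, 1582 and 1576 in ND libraries. It rose without overlap (log2 fold change 0.25, SE 0.047, limma adjusted p = 7.44e-05). Of the bifunctional enzymes Hsd17b4 thus rose, while the call of Ehhadh depended on single libraries. Acaa1a, the peroxisomal thiolase (ENSMUSG00000036138, chr9:119339676-119350299), had 2339.8, 2604 and 2628 in CDAHFD libraries and 2217, 2315 and 2199.6 in ND libraries. It rose by the smallest amount of the 13 higher genes (log2 fold change 0.17, SE 0.048, limma adjusted p = 0.00531), and plain limma lost the call (adjusted p = 0.0851). Its close copy Acaa1b, 96.6% identical over 1428 bases, had only 5 reads in CDAHFD libraries and 9 in ND libraries. Crot, which makes carnitine esters of shortened chains for export, averaged 1562 ± 52.3 normalised counts in CDAHFD libraries and 1566 ± 39.8 in ND libraries (SD, n = 3 each; 95% interval of the log2 fold change -0.11 to 0.10) and did not pass the test.

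Set side by side, mitochondrial genes had a median log2 fold change of -0.0097 and peroxisomal genes one of -0.0043. The median size of the change without regard to sign was 0.039 for the 16 mitochondrial and 0.25 for the 7 peroxisomal genes, against 0.22 over all 15819 tested genes. This order was reversed in the lists of other pathway genes given below, at 0.22 for 25 mitochondrial and 0.18 for 23 peroxisomal genes. Called genes were 7 of 16 (43.8%) in the mitochondrial group and 5 of 7 (71.4%) in the peroxisomal group, beside 47.1% of all tested genes. Whether the groups differ was not tested, since genes are not replicates and the lists are short. The lists were also chosen with earlier results of these data known, so the contrast is a description only. Summed over each library, the 16 mitochondrial genes held 18813 ± 503 normalised counts in CDAHFD libraries and 19601 ± 516 in ND libraries. The 7 peroxisomal genes held 9265 ± 203 in CDAHFD libraries and 8962 ± 117 in ND libraries. The peroxisomal sum was 46.6% to 51.2% of the mitochondrial sum in CDAHFD libraries and 44.4% to 46.9% in ND libraries, ranges that overlap.

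Crat and Eci2 work in both organelles. Crat, the carnitine acetyltransferase that buffers acetyl-CoA (ENSMUSG00000026853, chr2:30400471-30415813), had 340.4, 391 and 410.4 normalised counts in CDAHFD libraries and 223, 241 and 251 in ND libraries. It rose without overlap (log2 fold change 0.67, SE 0.10, limma adjusted p = 1.21e-06). Eci2, an isomerase for unsaturated chains, averaged 786 ± 40.7 normalised counts in CDAHFD libraries and 789 ± 32.4 in ND libraries (SD, n = 3 each; 95% interval of the log2 fold change -0.13 to 0.13). Of the thioesterases, which release free acids from coenzyme A, Acot7 (ENSMUSG00000028937, chr4:152178134-152271855) had 813, 776 and 900.2 in CDAHFD libraries and 544, 543 and 511 in ND libraries. It rose without overlap (log2 fold change 0.64, SE 0.069, limma adjusted p = 9.7e-09). Acot13, a mitochondrial thioesterase, had 329.9, 350.4 and 339 in CDAHFD libraries and 362, 427 and 375 in ND libraries. Its groups did not overlap, yet it did not pass the test (log2 fold change -0.19, SE 0.087, limma adjusted p = 0.0798).

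**Figure D3:**
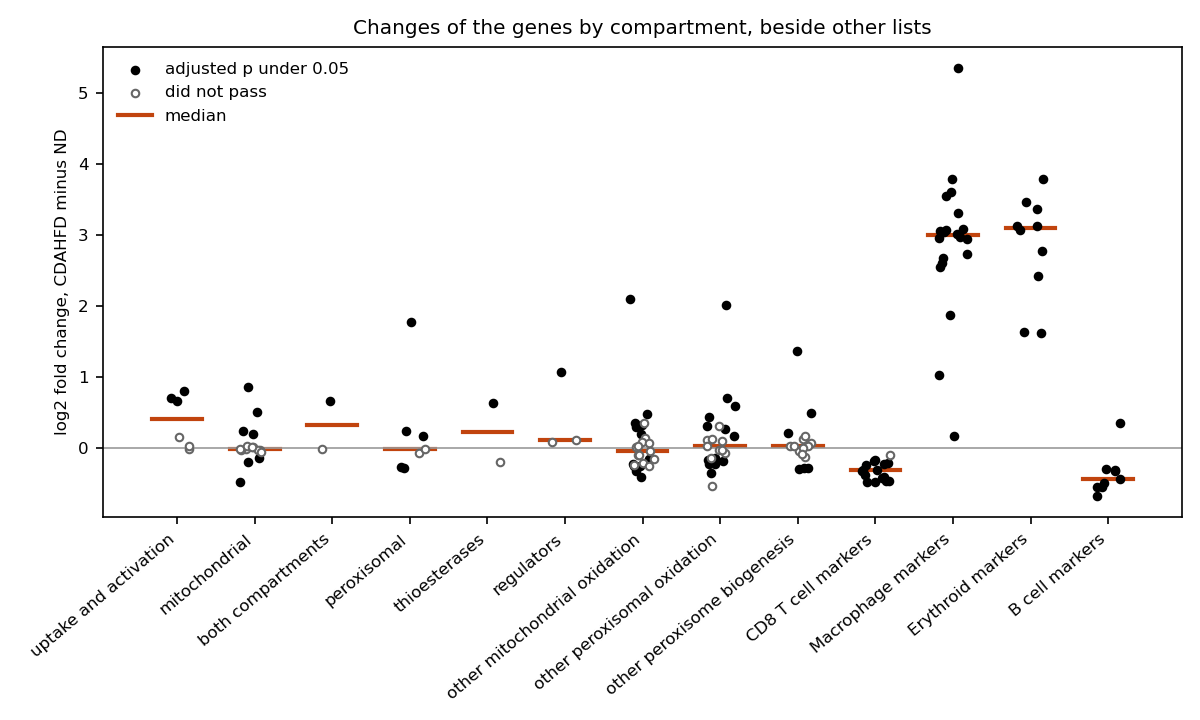
Each point is a tested gene, placed by its log2 fold change (CDAHFD minus ND) and sorted by role, beside other genes of the pathway and cell type markers; filled points have a limma adjusted p under 0.05 and bars are medians. Uptake and activation genes lie near or above 0, mitochondrial and peroxisomal genes on both sides of 0, CD8 T cell markers below 0, and the medians of macrophage and erythroid markers are 3.00 and 3.11.

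Among the regulators, Ppara, which encodes the main fatty acid sensor of liver, was below the minimum, with 2 reads in each CDAHFD library and 1 in each ND library. Its ratio of depth-adjusted reads was 1.98 with an exact 95% counting interval of 0.422 to 12.2, so no difference was detectable at this depth. Ppard, the family member found in most tissues, had 653, 671 and 698 normalised counts in CDAHFD libraries and 640.1, 587 and 629.8 in ND libraries. Its groups did not overlap and it did not pass the test (log2 fold change 0.12, SE 0.067, limma adjusted p = 0.137). Ppargc1b, a coactivator of mitochondrial genes, averaged 469 ± 27.9 normalised counts in CDAHFD libraries and 439 ± 32.3 in ND libraries (SD, n = 3 each; limma adjusted p = 0.35).

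Ppargc1a, the coactivator PGC-1 alpha (ENSMUSG00000029167, chr5:51454250-51567726), had 13.7, 9.47 and 26.1 normalised counts in CDAHFD libraries and 8.34, 6.12 and 5.66 in ND libraries. Its ND mean lay under the minimum of 10, so it was tested because of its CDAHFD values. It was called higher at the edge of the threshold (log2 fold change 1.08, SE 0.45, limma adjusted p = 0.0475), with CDAHFD replicate 3 the highest library. Without that library the limma adjusted p was 0.299 and the log2 fold change 0.71. The call was also lost without CDAHFD replicate 1 (0.064), ND replicate 1 (0.0509), ND replicate 2 (0.0971) or ND replicate 3 (0.107), with equal library totals (0.0516), by DESeq2 (0.0663) and by plain limma (0.068).

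Levels spread more widely between genes than between diets. Per kb of the principal transcript, Acaa2 was the most abundant of the 38 genes in ND libraries, at 934 ± 8.04 normalised counts per kb in CDAHFD libraries and 1293 ± 54.5 in ND libraries. Acaa1a led in CDAHFD libraries, at 1433 ± 90.8 in CDAHFD and 1274 ± 35.3 in ND libraries. In ND libraries Acaa2 and Acaa1a did not differ beyond their spread. Hadhb and Hadha came next in ND libraries, at 1160.0 ± 110.3 and 1103 ± 33.4 per kb, again within their spread. The rank of Hadhb is uncertain, since the counting could split its reads with Gm13910, at 677 ± 26.6 normalised counts in ND libraries. Abcd2 remained low, at 53.9 ± 3.32 per kb in CDAHFD libraries and 15.6 ± 1.34 in ND libraries, while Abcd3 stood at 230.0 ± 6.51 in CDAHFD and 239.9 ± 5.42 in ND libraries. Ehhadh was also far below Hsd17b4, at 99.6 ± 13.9 per kb in CDAHFD and 119 ± 3.01 in ND libraries. Hsd17b4 stood at 699 ± 22.2 per kb in CDAHFD and 588 ± 1.42 in ND libraries. Of the 36 genes 8 were higher by 1.5-fold or more and 0 were lower by that much, where 15.0% of all tested genes were higher and 6.54% lower by that much. The 8 include Ppargc1a, which was tested because of its CDAHFD values, so the split is a description only.

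**Figure D4:**
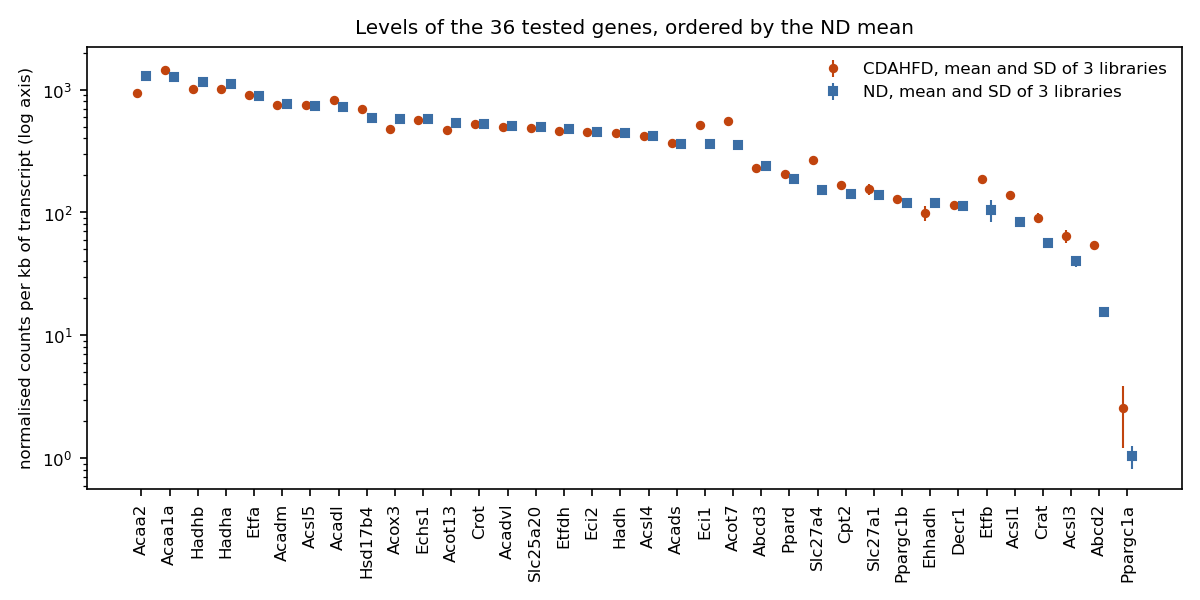
Mean normalised counts per kb of the principal transcript (log axis) of the 36 tested genes, ordered by their ND level, with circles for CDAHFD, squares for ND and bars for the SD of 3 libraries. Differences between diets are small beside the range between genes, and Abcd2 shows the widest gap among genes above 10 per kb.

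Other genes of the pathway were counted by list. Of the 64 tested, 16 were higher, 15 lower and 33 without a call, so that 48.4% were called, against 47.1% of all tested genes. Among 25 further mitochondrial genes 6 rose and 6 fell. Besides Cpt1a, Acadsb, for short branched chains, averaged 802 ± 20.2 normalised counts in CDAHFD libraries and 624 ± 47.2 in ND libraries, while Hsd17b10 averaged 819 ± 46.7 normalised counts in CDAHFD libraries and 1083 ± 67.5 in ND libraries and the acetoacetyl-CoA thiolase Acat1 averaged 1462 ± 71.7 normalised counts in CDAHFD libraries and 1816 ± 35.2 in ND libraries. The log2 fold changes were 0.36, -0.40 and -0.31 in that order (limma adjusted p = 5.41e-05, 3.97e-06 and 6.16e-06).

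Of 23 further peroxisomal genes 7 rose and 6 fell. Ech1, an isomerase for dienoyl-CoA found in both organelles, averaged 1732 ± 28.4 normalised counts in CDAHFD libraries and 1277 ± 9.05 in ND libraries (log2 fold change 0.44, SE 0.049, limma adjusted p = 1.31e-08). The hydrogen peroxide-degrading catalase gene Cat averaged 3474 ± 206 normalised counts in CDAHFD libraries and 2777 ± 25 in ND libraries (log2 fold change 0.32, SE 0.045, limma adjusted p = 8.68e-07), and Nudt7, a coenzyme A hydrolase, averaged 217 ± 21.5 normalised counts in CDAHFD libraries and 132 ± 14.1 in ND libraries (log2 fold change 0.71, SE 0.12, limma adjusted p = 2.15e-05). Hsdl2 fell, with 1045 ± 56.8 normalised counts in CDAHFD libraries and 1329.9 ± 8.49 in ND libraries (log2 fold change -0.35, SE 0.055, limma adjusted p = 5e-06). Of 16 genes of peroxisome biogenesis 3 rose and 3 fell. Pex11a, which acts in peroxisome division, averaged 95.4 ± 20.3 normalised counts in CDAHFD libraries and 36.1 ± 7.75 in ND libraries (log2 fold change 1.37, SE 0.21, limma adjusted p = 3.11e-06), and the import factor Pex13 averaged 620.0 ± 50.2 normalised counts in CDAHFD libraries and 437 ± 16.5 in ND libraries (log2 fold change 0.50, SE 0.076, limma adjusted p = 3.16e-06). Pex19 and Pex3, partners in the insertion of membrane proteins, fell with log2 fold changes of -0.29 and -0.28 (limma adjusted p = 0.000265 and 0.0023).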

How the data were processed

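The deposited table gives a signal for each of 26181 Ensembl gene IDs in each library, which by its steps is the read count over that library's median-of-ratios size factor; no source states how the authors made it. Per the submitters' processing notes the build was mm10. Aligner, counter, strand setting and annotation: not given in the sources used here. Every value was a whole multiple of its column's smallest value above 0 (100% within 0.001), so whole reads were recovered. Columns spelled CDHFD were matched to CDAHFD samples by replicate number. Symbols matched 26147 IDs; positions, exons and principal transcripts came from GENCODE M21.

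The test was limma 3.58.1 (R 4.3.3, trend and robust) on log2(normalised count + 1), over 15819 genes with a mean of at least 10, adjusted by Benjamini-Hochberg; fold changes on this scale understate low genes. Adjusted p under 0.05 counted as called. Only this limma fit was tested on simulated data. It recovered 31, 42, 41 and 48 of 50 genes changed by 1.3-, 1.5-, 2- and 4-fold. Recovered reads were tested with edgeR 4.0.16 and DESeq2 1.42.0. Copies were sought with blastn 2.17.0 (at least 95% identity over 200 bases). The genes and lists were chosen with earlier results of these data known. All listed genes are named, and from each further pathway list the 4 called genes with the smallest adjusted p. Dvl2, Gm13910, Acaa1b, Utp14b, Echdc2 and Acot4 were named after their values were seen. The motifs other than DR1 were likewise chosen afterwards. Protein sequences were not used here.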

Additional observations from a re-analysis of the deposited data

How the results depend on the processing

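Across 16 alternatives the count of genes called higher, 13 as reported, ranged from 9 to 13, and that of genes called lower, 5 as reported, from 2 to 5. No called gene changed direction, and 11 of 18 kept their call under every alternative. The count of lower genes was 2 by limma without trend and robust estimation, and 3 to 5 with 1 library left out. Of 18 genes not called, 10 changed sign under some alternative. With equal library totals Acads was at -0.00059 and Etfa at -0.0028. With 1 library left out, log2 fold changes ranged from -0.060 to 0.023 for Slc25a20, -0.031 to 0.024 for Acadm, -0.0019 to 0.045 for Acads, -0.061 to 0.0096 for Hadh, -0.043 to 0.032 for Echs1, -0.016 to 0.10 for Decr1, -0.032 to 0.058 for Etfa, -0.032 to 0.016 for Crot, -0.038 to 0.038 for Eci2 and -0.041 to 0.019 for Acsl4. With a replicate block the counts were 13 higher and 5 lower and all genes called were 7250. Same-numbered samples did not deviate together (correlations 0.041, -0.051 and 0.062), which cannot tell whether they were handled as pairs. All genes called ranged from 6105 to 7819. Without the filter on low values, Acsl6 had a limma adjusted p of 0.058 and Ppara one of 0.584.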
